A study of Homo sapiens with 8 samples.

Results

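Matrix metalloproteinases (MMPs) and their tissue inhibitors (TIMPs) were followed in 8 RNA-seq libraries of breast epithelial cells that did or did not overexpress the lncRNA *MALINC1*. The 10 genes were taken by symbol from the normalized table, where all 10 were found among 13842 genes: *MMP1*, *MMP2*, *MMP9*, *MMP10*, *MMP14*, *MMP15*, *MMP16*, *TIMP1*, *TIMP2* and *TIMP3*. MCF10A, an immortalized non-tumorigenic breast epithelial line, and DCIS.COM, a line of the MCF10 series that models ductal carcinoma in situ, were each stably transduced with the lentiviral vector pLOC without insert (pLOC-empty) or with *MALINC1* (pLOC-*MALINC1*) and selected with blasticidin, so the control cells also carry the vector and its selection. There were 2 libraries in each of the 4 groups. MCF10A cells were grown with horse serum, epidermal growth factor, hydrocortisone, insulin and cholera toxin, and DCIS.COM cells with horse serum alone, so line and medium cannot be told apart. The sources used here do not say whether the 2 libraries of a group came from separate cultures or transductions. The p-values below measure only the spread between such libraries, unless stated pooled over the 4 groups and drawn toward that of other genes.

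MMPs are zinc-dependent proteases that cut collagens, laminins and other proteins of the extracellular matrix and also release growth factors and receptors from the cell surface. They are made as inactive proenzymes, are switched on when the propeptide is removed, and are blocked when a TIMP occupies the active site. In the breast they take part in duct branching and involution, and loss of the basement membrane by proteolysis separates invasive carcinoma from carcinoma in situ. *MMP1* and *MMP10* encode secreted enzymes, a collagenase and a stromelysin. *MMP2* and *MMP9* encode the gelatinases, which act on basement membrane collagen. *MMP14*, *MMP15* and *MMP16* encode membrane-type enzymes anchored at the cell surface, and MMP14 activates the MMP2 proenzyme there with TIMP2 as a bridge.

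The libraries held between 20604377 and 37550457 reads on genes. *MALINC1* itself stood at 1.0 and 1.51 CPM (counts scaled by library size) in MCF10A pLOC-empty and at 13.2 and 11.7 CPM in MCF10A pLOC-*MALINC1*, and at 1.35 and 1.15 CPM against 24.5 and 19.2 CPM in DCIS.COM, as the labels say. All 9 genes examined as basal epithelial markers were measured, of which CDH1 and EPCAM mark epithelium in general. The summed level of the 9 was 18797 to 19047 CPM in MCF10A pLOC-empty and 25803 to 26765 CPM in MCF10A pLOC-*MALINC1*. It was 5188 to 5327 CPM in DCIS.COM pLOC-empty and 6331 to 6494 CPM in DCIS.COM pLOC-*MALINC1*. The keratins KRT5, KRT14 and KRT6A set the larger sum of MCF10A, whereas TP63 (4.92 against 56.6 CPM), ITGA6, ITGB4 and EPCAM had lower means in MCF10A pLOC-empty than in DCIS.COM pLOC-empty. Of 7 luminal markers 6 were measured, with sums of 1290 to 1387, 1564 to 1655, 3454 to 3502 and 3252 to 3329 CPM in that order. KRT8 and KRT18 made up most of these sums and, with FOXA1, were higher in DCIS.COM pLOC-empty than in MCF10A pLOC-empty. ESR1, GATA3 and KRT19 did not differ detectably between these control groups (limma, adjusted p = 0.0778, 0.541 and 0.365). Of 8 fibroblast markers 2 were measured (COL1A1 and FAP), with a sum of 85.3 to 86.1 CPM in MCF10A pLOC-empty, 41.3 to 42.6 CPM in MCF10A pLOC-*MALINC1*, 6.62 to 7.16 CPM in DCIS.COM pLOC-empty and 2.13 to 2.22 CPM in DCIS.COM pLOC-*MALINC1*. Of 6 leukocyte markers 3 were measured (CD68, CSF1R and CD14), with sums of 37.6 to 38.6, 24.4 to 25.9, 4.71 to 4.87 and 8.22 to 8.42 CPM in the same order. Their part in the results below was not tested.

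Promoter sequences are shown for *MMP10* and *TIMP3*, the members with the largest change in MCF10A and in DCIS.COM, whose upstream regions differ in base composition and motifs. Each run is the 250 bases before the RefSeq start of the gene in GRCh38.p14, read 5′ to 3′ on the gene's strand, at chr11:102780629-102780878 on the minus strand for *MMP10* and chr22:32801455-32801704 on the plus strand for *TIMP3*. Capitals mark TGANTCA and TATAAA in *MMP10* and GGGCGG or its other strand CCGCCC (the GC box) in *TIMP3*.
MMP10: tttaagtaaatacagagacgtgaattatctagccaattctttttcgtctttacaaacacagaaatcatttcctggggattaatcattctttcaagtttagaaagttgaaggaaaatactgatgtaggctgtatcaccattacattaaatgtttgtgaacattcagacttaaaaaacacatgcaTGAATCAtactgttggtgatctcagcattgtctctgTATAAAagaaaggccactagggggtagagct
TIMP3: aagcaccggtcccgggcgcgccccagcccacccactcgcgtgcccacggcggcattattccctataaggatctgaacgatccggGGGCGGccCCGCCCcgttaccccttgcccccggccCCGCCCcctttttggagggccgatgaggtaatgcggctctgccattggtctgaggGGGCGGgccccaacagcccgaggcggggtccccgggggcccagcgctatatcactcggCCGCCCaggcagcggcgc

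The *MMP10* window held 2 CpG dinucleotides and 34.4% G and C, and the *TIMP3* window held 26 CpG and 72.4%, against medians of 11 CpG and 58.0% over 35116 promoters of the same length in the RefSeq table. *MMP10* had 1 TATAAA, which 10.7% of these promoters hold on either strand, and 1 TGANTCA, which 6.57% hold. TGANTCA is a looser form of TGAGTCA, the classical AP-1 motif (4.20% of promoters), was searched only after the sequence had been read, and contains every TGAGTCA match. *TIMP3* had 5 GC boxes and neither of the other motifs. At least 1 GC box lies in 42.6% of the promoters and 5 or more in 4.15%. Of the other members in the table, *MMP15* had 5 GC boxes and 31 CpG, *TIMP1* 2 and 12, and *MMP14* 1 and 7, with no TGAGTCA or TATAAA in any of them. *MMP1*, *MMP2*, *MMP9*, *MMP16* and *TIMP2* are not in that table.

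In MCF10A, *MALINC1* overexpression went with higher *MMP10*, *MMP14*, *TIMP1* and *TIMP3* and lower *TIMP2*. In DCIS.COM it went with higher *MMP16* and *TIMP1* and lower *TIMP3*, *MMP2* and *MMP14*. Differentially expressed genes (DEGs) were those with an adjusted p below 0.01 in the limma fit over all genes and a change over 2-fold. By that rule 1 of the 10 genes (*MMP10*, higher) was a DEG in MCF10A, where 5.50% of all genes were (2.99% higher and 2.51% lower). In DCIS.COM 3 of 10 were (*MMP16* higher, *TIMP3* and *MMP2* lower), beside 4.53% of all genes (1.44% higher and 3.08% lower). Without the fold limit, 5 of 10 passed in MCF10A (all genes 39.6%), and for DCIS.COM this was 6 of 10 (all genes 33.2%). The median log2 fold change of the 10 genes was 0.44 for MCF10A, where that of all genes was 0.00, and -0.50 for DCIS.COM, where that of all genes was 0.01. These counts are descriptive, since *MMP1*, *MMP10* and *MMP9* were each below 0.5 CPM in both libraries of at least 1 group and were in the table through the groups where they were higher.

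**Figure D1:**
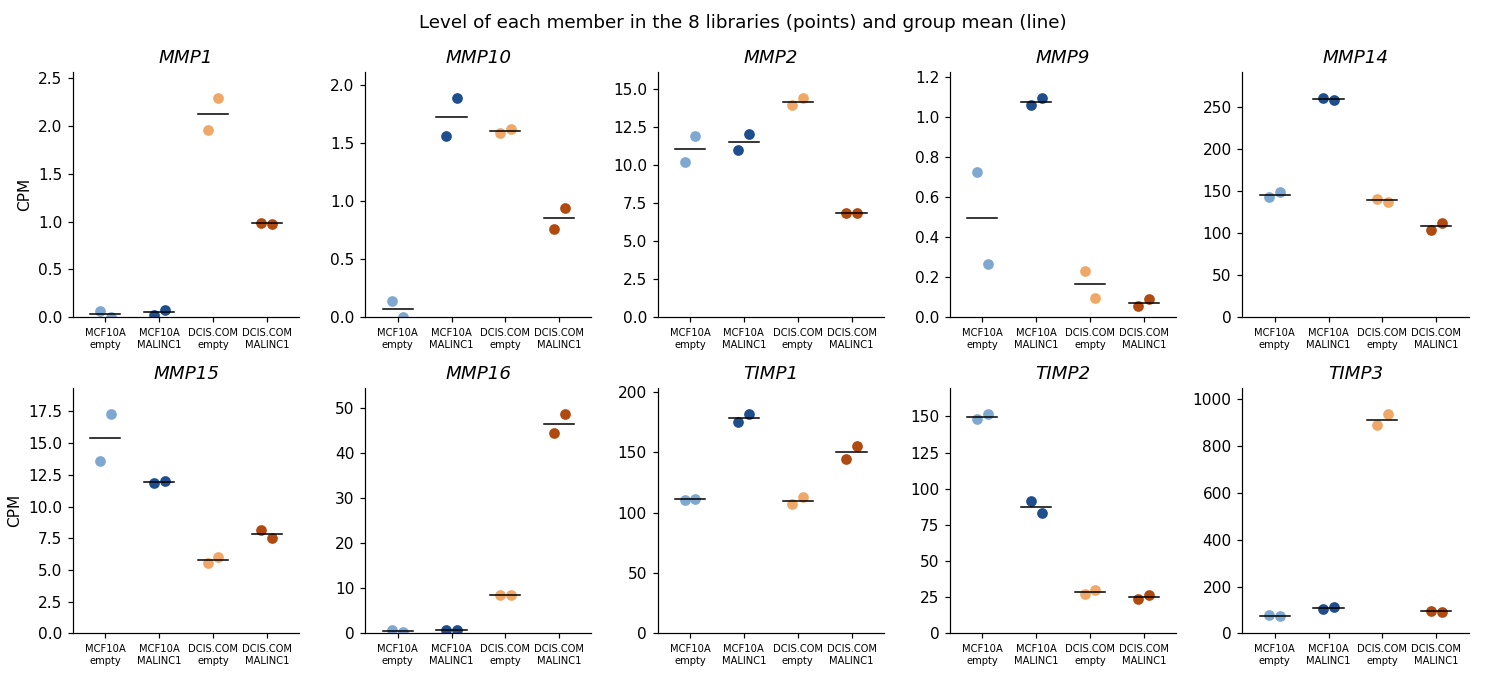
Level of the 10 genes in CPM (vertical axis, linear, from 0, with its own range in each panel) in the 4 groups; points are the 2 libraries and lines the group means. *TIMP3* is far higher in DCIS.COM pLOC-empty (888 and 934 CPM) than in any other group, and *MMP16* is highest in the DCIS.COM pLOC-*MALINC1* libraries (44.4 and 48.6 CPM).

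Among the secreted enzymes, *MMP10* (stromelysin-2, which degrades matrix proteins and activates other proenzymes) spans positions 102641233 to 102651359 of chromosome 11 on the minus strand (GRCh37, as for all genes below). It had 4 and 0 reads in MCF10A without *MALINC1* and 56 and 50 reads with it, which is 0.0690 ± 0.0975 against 1.72 ± 0.232 CPM (mean ± SD, n = 2). The groups did not overlap, and the control group was close to the limit of detection. The log2 fold change was 3.87 (standard error 0.39, adjusted p = 5.52e-06), but its size depends on the prior count: it was 1.97 or 1.35 with a pseudocount of 0.5 or 1 CPM, 4.86 with voom, and 4.65 or 3.10 without replicate 1 or 2 of MCF10A pLOC-empty, and passed in each. The ratio of the pooled reads was 21.9, with a 95% interval of 8.31 to 81.9 that covers counting error only. Fitted on the 4 MCF10A libraries alone, the same change missed the threshold (adjusted p = 0.0106). In DCIS.COM, *MMP10* had 34 and 34 reads without and 26 and 32 reads with *MALINC1*, or 1.60 ± 0.0264 and 0.852 ± 0.133 CPM (SD, n = 2). These libraries did not overlap in CPM, but the log2 fold change of -0.87 (standard error 0.39) did not pass (adjusted p = 0.0921). Its adjusted p fell below 0.01, still under 2-fold, without replicate 1 or 2 of MCF10A pLOC-empty (0.00951 and 0.00784) and with a pseudocount of 0.5 or 1 CPM (0.00516 and 0.00329). The response of *MMP10* differed between the lines by -4.74 on the log2 scale (DCIS.COM minus MCF10A, standard error 0.56, adjusted p = 2.13e-05), with -1.84 to -5.66 over the same alternatives. In bulk samples fewer expressing cells and less RNA per cell cannot be told apart, here or in any result below.

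*MMP1* (interstitial collagenase, which opens the fibrillar collagen triple helix) lies next to *MMP10* on chromosome 11, from 102660132 to 102668891 on the minus strand. It was at the floor in MCF10A, with 2 and 0 reads without and 1 and 2 reads with *MALINC1*, so the fitted change there is not read. In DCIS.COM it had 42 and 48 reads without *MALINC1* and 34 and 33 with it. Its level there was 2.13 ± 0.235 and 0.983 ± 0.0105 CPM (SD, n = 2), with no overlap between the groups. The log2 fold change had a standard error of 0.35 over all 8 libraries, spread of MCF10A included, and of 0.14 with DCIS.COM fitted alone. Its value of -1.05 did not pass the threshold of 0.01 over all genes (adjusted p = 0.0274). It passed without replicate 2 of MCF10A pLOC-empty (adjusted p = 0.00994) and with the DCIS.COM libraries fitted alone (adjusted p = 0.00692). Its adjusted p also fell below 0.01, under 2-fold, with a pseudocount of 0.5 or 1 CPM (0.000600 and 0.000237) and with voom (0.00438). Of the *MMP1* exons (2738 nt), 223 nt overlap a pseudogene on the opposite strand. The strand setting of the read counting is not given in the sources used here.

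Of the gelatinases, *MMP2* (chromosome 16, 55423612 to 55540603, plus strand) fell with *MALINC1* in DCIS.COM and showed no detectable change in MCF10A. It stood at 13.9 and 14.4 CPM in DCIS.COM pLOC-empty and at 6.85 and 6.89 CPM in DCIS.COM pLOC-*MALINC1*. The log2 fold change was -1.04 (standard error 0.098, adjusted p = 3.53e-06), just past the 2-fold limit. It was -0.99 or -0.95 with a pseudocount of 0.5 or 1 CPM and -0.92 per total reads, where *MMP2* was no longer a DEG. In MCF10A the libraries overlapped, at 10.2 and 11.9 CPM without and 11.0 and 12.1 CPM with *MALINC1*. The difference there was 0.06 on the log2 scale (95% interval -0.15 to 0.28, adjusted p = 0.619), an interval that leaves out a 2-fold change in either direction. The responses differed by -1.10 (standard error 0.14, adjusted p = 3.69e-05), or -0.99 without replicate 1 of MCF10A pLOC-empty. Of the *MMP2* exons (4706 nt), 174 nt overlap another annotated gene on the same strand.

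*MMP9* (chromosome 20, 44637547 to 44645200, plus strand), the gelatinase best known from neutrophils and macrophages, was scarce in all 8 libraries. It had 21 and 6 reads in MCF10A pLOC-empty and 38 and 29 reads in MCF10A pLOC-*MALINC1*, or 0.495 ± 0.324 and 1.08 ± 0.0260 CPM (SD, n = 2). The control libraries lay apart from each other, and both were below the *MALINC1* libraries. The log2 fold change of 1.15 (standard error 0.41) did not pass (adjusted p = 0.0342), whereas without replicate 1 of MCF10A pLOC-empty it was 1.77 and passed (adjusted p = 0.00594), and without replicate 2 it was 0.53 (adjusted p = 0.318). With a pseudocount of 0.5 or 1 CPM the MCF10A change was 0.70 or 0.49, under 2-fold (limma, adjusted p = 0.00995 and 0.00832). In DCIS.COM *MMP9* had 5 and 2 reads without and 2 and 3 reads with *MALINC1*. A change was not detectable there at this depth (ratio of pooled reads 2.25, 95% counting interval 0.615 to 9.00, adjusted p = 0.226). Of its exons (2336 nt), 430 nt overlap a lncRNA on the opposite strand.

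Of the membrane-type enzymes, *MMP14* rose with *MALINC1* in MCF10A and fell in DCIS.COM, and *MMP16* rose in DCIS.COM. *MMP14* (chromosome 14, 23305769 to 23318250, plus strand), the main activator of pro-MMP2 at the cell surface, had 143 and 148 CPM in MCF10A pLOC-empty and 260 and 258 CPM in MCF10A pLOC-*MALINC1*. It rose there by 0.83 on the log2 scale (standard error 0.039, adjusted p = 6.94e-09), which is 1.78-fold (95% interval 1.68 to 1.89) and under the limit for a DEG. In DCIS.COM it had 141 and 137 CPM without and 104 and 112 CPM with *MALINC1*, and it fell by 0.36 on the log2 scale (standard error 0.039, adjusted p = 1.13e-05). Neither pair of groups overlapped, and the control levels of the lines did not differ detectably (log2 difference -0.07, adjusted p = 0.120). The difference between the responses was -1.19 (standard error 0.056, adjusted p = 5.25e-09).

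*MMP16* (chromosome 8, 89044239 to 89340254, minus strand), a membrane-type enzyme that also activates pro-MMP2, had the largest rise of the 10 genes in DCIS.COM. Its level was 8.44 and 8.59 CPM (181 and 180 reads) in DCIS.COM pLOC-empty and 44.4 and 48.6 CPM (1524 and 1643 reads) in DCIS.COM pLOC-*MALINC1*. The log2 fold change was 2.44 (standard error 0.21, adjusted p = 1.90e-06), or 5.41-fold (95% interval 3.92 to 7.49). In MCF10A it had 22 and 9 reads without and 25 and 20 reads with *MALINC1*, or 0.579 ± 0.255 and 0.726 ± 0.0417 CPM (SD, n = 2). These groups overlapped, with a log2 difference of 0.35 (95% interval -0.12 to 0.82, adjusted p = 0.189), or 0.76 (adjusted p = 0.00265) without replicate 1 of MCF10A pLOC-empty. The responses differed by 2.09 (standard error 0.30, adjusted p = 0.000120). Of the *MMP16* exons (12108 nt), 118 nt overlap a lncRNA on the opposite strand.

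*MMP15* (chromosome 16, 58059658 to 58080805, plus strand), the third membrane-type enzyme, changed little. It stood at 13.6 and 17.3 CPM in MCF10A pLOC-empty and 11.9 and 12.0 CPM in MCF10A pLOC-*MALINC1* (log2 fold change -0.36, adjusted p = 0.0207). In DCIS.COM it stood at 5.55 and 6.01 CPM without and 8.16 and 7.54 CPM with *MALINC1* (log2 fold change 0.44, standard error 0.12, adjusted p = 0.00845). That adjusted p rose above 0.01 without any 1 of the DCIS.COM libraries (up to 0.0686), while the adjusted p in MCF10A was 0.00478 without replicate 1 of pLOC-empty. The responses differed by 0.79 (adjusted p = 0.00161), which is under the limit of 2-fold.

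**Figure D2:**
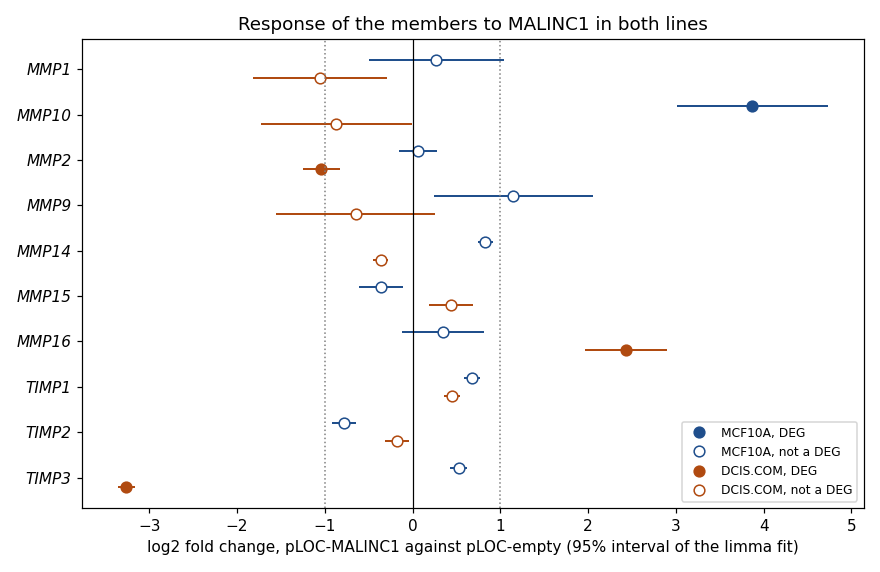
Log2 fold change of pLOC-*MALINC1* against pLOC-empty (horizontal axis) for each gene in MCF10A (blue) and DCIS.COM (orange); bars are 95% intervals of the limma fit over all 8 libraries, filled points are DEGs and dotted lines mark 2-fold. *MMP10* (3.87) is the only filled point in MCF10A, *TIMP3* (-3.26), *MMP2* (-1.04) and *MMP16* (2.44) are filled in DCIS.COM, and the MCF10A point of *MMP1* rests on 2 and 3 pooled reads.

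Of the inhibitors, *TIMP3* fell the most of the 10 genes. TIMP3 is bound to the extracellular matrix and blocks several ADAM and ADAMTS proteases besides the MMPs. Its gene spans 33197691 to 33259028 on the plus strand of chromosome 22, within the gene *SYN3* on the opposite strand, with no overlap of exons. It stood at 888 and 934 CPM in DCIS.COM pLOC-empty and at 97.5 and 92.4 CPM in DCIS.COM pLOC-*MALINC1*. The log2 fold change was -3.26 (standard error 0.044, adjusted p = 7.53e-14), which is 9.59-fold lower (95% interval 8.97 to 10.2). In MCF10A it moved the other way, from 78.3 and 74.0 CPM to 106 and 113 CPM (log2 fold change 0.52, standard error 0.044, adjusted p = 1.06e-06). The difference between the responses was -3.78 (standard error 0.063, adjusted p = 1.33e-12). PECAM1, the only one of 4 endothelial markers that was measured, was at 6.06 to 7.21 CPM in DCIS.COM pLOC-empty and at 0.0874 to 0.177 CPM in DCIS.COM pLOC-*MALINC1*, and its part in the *TIMP3* result was not tested.

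*TIMP1*, a soluble inhibitor that is weak against the membrane-type enzymes, rose in both lines. Its gene spans 47441807 to 47446188 on the plus strand of the X chromosome, within the gene *SYN1* on the opposite strand, and the exons do not overlap. It stood at 111 and 112 CPM in MCF10A pLOC-empty and 175 and 181 CPM in MCF10A pLOC-*MALINC1*, a rise of 0.68 on the log2 scale (standard error 0.042, adjusted p = 7.32e-08). The DCIS.COM libraries rose from 107 and 113 CPM to 144 and 156 CPM, by 0.45 on the log2 scale (standard error 0.042, adjusted p = 3.47e-06). The rise was smaller in DCIS.COM by 0.23 on the log2 scale (adjusted p = 0.00652), but per total reads the difference was -0.10 and did not pass (adjusted p = 0.270), nor did it without any 1 of 6 of the 8 libraries (adjusted p = 0.0112 to 0.0343). Both rises were under 2-fold.

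*TIMP2* (chromosome 17, 76849059 to 76921469, minus strand), which both inhibits MMP2 and holds its proenzyme for activation by MMP14, fell in MCF10A. Its level there was 148 and 151 CPM without and 91.6 and 83.0 CPM with *MALINC1* (log2 fold change -0.78, standard error 0.064, adjusted p = 8.81e-07), and the groups did not overlap. In DCIS.COM it had 27.1 and 29.7 CPM without and 23.7 and 26.5 CPM with *MALINC1*, and the log2 fold change of -0.18 did not pass (adjusted p = 0.0398). The responses differed by 0.60 (adjusted p = 0.000163). Of its exons (6209 nt), 224 nt are shared with *CEP295NL* on the same strand and 367 nt with a lncRNA on the opposite strand.

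Set side by side, the responses of *MMP14* and *TIMP3* passed an adjusted p of 0.01 with opposite signs in the lines and differed by more than 2-fold. *MMP10*, *MMP16* and *MMP2* also differed by more than 2-fold, with a change past that limit in MCF10A for *MMP10* and in DCIS.COM for the other 2. These 5 of 10 genes passed the test of the difference at over 2-fold, as did 9.20% of all genes. Without the fold limit 8 of 10 did, against 35.9% of all genes. These counts are descriptive too, since the members were chosen with results known. *MMP10* was also in the table through the groups where it was higher. The plot of all genes sets the 10 genes among the rest at their level.

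**Figure D3:**
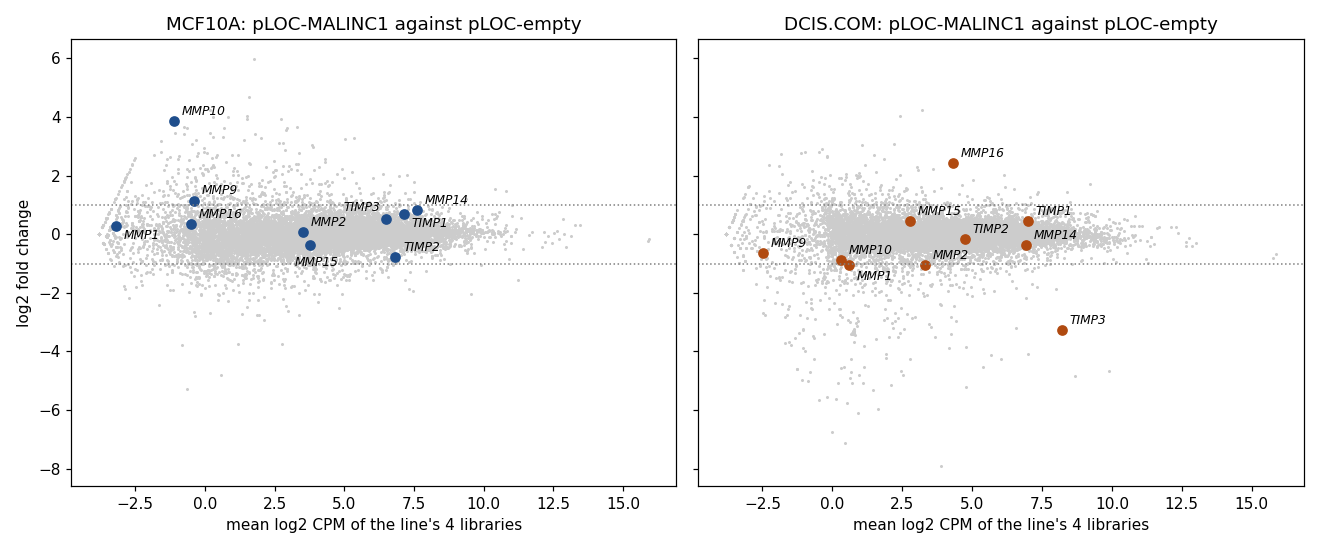
Log2 fold change of pLOC-*MALINC1* against pLOC-empty (vertical axis) by mean log2 CPM of the 4 libraries of a line (horizontal axis); grey points are all 13842 genes, coloured points the 10 genes, and dotted lines 2-fold. In MCF10A only *MMP10* and *MMP9* lie above 2-fold (*MMP9* is not a DEG), and in DCIS.COM *TIMP3* lies far below the other abundant members, at -3.26.

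Between the lines, without *MALINC1*, DCIS.COM had more *TIMP3*, *MMP16*, *MMP1* and *MMP10* and less *TIMP2* and *MMP15* than MCF10A. These 6 of 10 were DEGs, as were 28.6% of all genes. The count is descriptive, since *MMP1* and *MMP10* were below 0.5 CPM in both MCF10A pLOC-empty libraries. Those genes were in the table through the groups where they were higher. The log2 difference was 3.58 for *TIMP3* (12.0-fold higher) and -2.40 for *TIMP2* (5.27-fold lower). *MMP16* was 3.78 higher on the same scale (2.60 with a pseudocount of 1 CPM and 4.19 without replicate 1 of MCF10A pLOC-empty) and *MMP15* was at -1.40. For the low genes the ratios of pooled reads were 54.8 for *MMP1* (90 against 2 reads, 95% counting interval 14.7 to 459) and 20.7 for *MMP10* (7.72 to 78.1). *MMP14* and *TIMP1*, both above 100 CPM, did not differ detectably (log2 differences -0.07 and -0.02, adjusted p = 0.120 and 0.694), and the sign of both turned under other scalings.

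With *MALINC1*, 5 of 10 were DEGs between the lines, where 26.6% of all genes were. That count is descriptive as well, since it holds *MMP1* and *MMP9*, each below 0.5 CPM in both libraries of its lower group. *MMP16* was then 5.87 higher in DCIS.COM on the log2 scale (4.78 with a pseudocount of 1 CPM) and *MMP14* 1.26 lower, and *TIMP2* remained lower (-1.80). *TIMP3*, so far apart in the control cells, stood at -0.21 (standard error 0.044, adjusted p = 0.000913), and at -0.0059 per total reads, where it did not pass (adjusted p = 0.911). It did not pass either without replicate 2 of MCF10A pLOC-*MALINC1* or of DCIS.COM pLOC-*MALINC1* (adjusted p = 0.0156 and 0.0147). For *MMP1* the ratio of pooled reads was 20.4 in favour of DCIS.COM (67 against 3 reads, interval 6.70 to 102), and for *MMP9* it was 14.6 in favour of MCF10A (67 against 5 reads, 5.97 to 46.6). These comparisons share their libraries with those of *MALINC1* and are not independent of them.

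The order of the 4 groups varied from gene to gene. *TIMP3* ranked DCIS.COM pLOC-empty, MCF10A pLOC-*MALINC1*, DCIS.COM pLOC-*MALINC1* and MCF10A pLOC-empty, with every step past an adjusted p of 0.01, of which the middle one was lost per total reads and without single libraries, as given above. *TIMP1* was highest in MCF10A pLOC-*MALINC1*, then in DCIS.COM pLOC-*MALINC1* (a step also lost per total reads, adjusted p = 0.381), and the control groups came last without a detectable difference. *MMP14* was highest in MCF10A pLOC-*MALINC1* and lowest in DCIS.COM pLOC-*MALINC1*, with the controls between them and not apart. For *MMP10* the highest 3 groups were not apart from their neighbours (adjusted p = 0.834 and 0.0921), and only the step down to MCF10A pLOC-empty was (adjusted p = 1.79e-05). For *MMP9* no step between neighbours passed.

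CPM were divided by exon length to compare levels between genes. On that scale (CPM per kilobase), *MMP14* made up between 74.1% and 89.6% of the sum of the 7 MMPs described here in every library (other measured MMPs, such as *MMP28* and *MMP7*, are not in that sum). The sum of the 7 MMPs was 36.8 and 38.8 in MCF10A pLOC-empty, 62.8 and 62.8 in MCF10A pLOC-*MALINC1*, 37.2 and 36.5 in DCIS.COM pLOC-empty and 30.4 and 32.4 in DCIS.COM pLOC-*MALINC1*. It was thus highest in MCF10A with *MALINC1* and lowest in DCIS.COM with *MALINC1*. The share of *MMP16* in that sum was at most 0.170% in MCF10A, 1.88% and 1.94% in DCIS.COM pLOC-empty and 12.1% and 12.4% in DCIS.COM pLOC-*MALINC1*. The shares depend on the lengths used, which merge all GENCODE exons (4623 nt for *MMP14* and 12108 nt for *MMP16*). Reads were counted on other gene models (UCSC hg19). In CPM the means of DCIS.COM pLOC-*MALINC1* were 108 for *MMP14* and 46.5 for *MMP16*.

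The sum of the 3 TIMPs was 118 and 118 CPM per kilobase in MCF10A pLOC-empty, 159 and 163 in MCF10A pLOC-*MALINC1*, 272 and 286 in DCIS.COM pLOC-empty and 125 and 132 in DCIS.COM pLOC-*MALINC1*. *TIMP3* contributed 71.1% of it in both DCIS.COM pLOC-empty libraries and between 13.7% and 17.0% in the other 6. *TIMP1* was the largest part elsewhere, at 65.4% on average in MCF10A pLOC-empty and 80.7% in DCIS.COM pLOC-*MALINC1*. The ratio of the TIMP sum to the MMP sum was 3.19 and 3.03, 2.53 and 2.60, 7.30 and 7.82, and 4.11 and 4.08 in the same group order. It was lower with *MALINC1* in both lines, with no overlap of libraries. In CPM without division by length the group means were 1.95, 1.31, 6.13 and 1.58, so that DCIS.COM pLOC-*MALINC1* then lay below MCF10A pLOC-empty instead of above it. The ratio carries no test because the genes were chosen with results known. Its MMP sum also leaves out measured MMPs, and a ratio that includes them was not computed. Without and with *MALINC1*, *MMP28* stood at 55.0 and 63.4 CPM in MCF10A and at 9.58 and 5.36 CPM in DCIS.COM. *MMP7* stood at 17.8 and 13.7 CPM in MCF10A and at 45.5 and 25.6 CPM in DCIS.COM. These are transcript sums and do not count active enzyme.

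**Figure D4:**
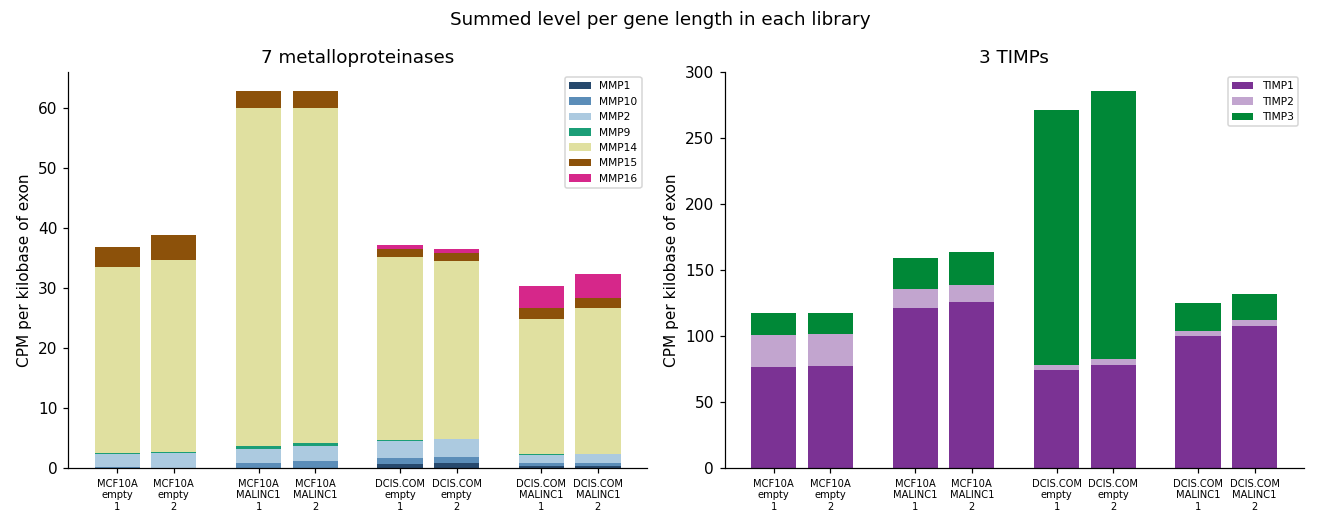
Summed level in CPM per kilobase of exon (vertical axes, linear, from 0) of the 7 metalloproteinases (left) and the 3 TIMPs (right), stacked by gene, with a bar for each of the 8 libraries. *MMP14* fills most of each bar on the left, and the *TIMP3* block makes up 71.1% of the bars of DCIS.COM pLOC-empty on the right.

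The rest of the proteolysis machinery was described by lists. Of 17 other metalloproteinase genes and *TIMP4*, 4 were measured (*MMP7*, *MMP17*, *MMP24* and *MMP28*), and none was a DEG with *MALINC1* in either line. *MMP7* (matrilysin) was lower in both, with log2 fold changes of -0.37 (MCF10A, adjusted p = 0.00285) and -0.83 (DCIS.COM, adjusted p = 7.17e-06). *MMP28* (epilysin) stood at 0.21 (MCF10A, adjusted p = 0.0310) and -0.83 (DCIS.COM, adjusted p = 1.75e-06) on that scale, and its responses differed by -1.04 (adjusted p = 4.79e-06). The list medians were -0.15 and -0.49.

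Among the ADAM and ADAMTS proteases, some of which TIMP3 inhibits, *ADAM8*, *ADAM19* and *ADAMTS9* fell in DCIS.COM. Of 9 measured ADAM genes (12 listed) none was a DEG in MCF10A and 2 were lower in DCIS.COM, with list medians of -0.07 and 0.15. *ADAM8* fell there from 30.2 to 1.50 CPM (by 4.27 on the log2 scale, adjusted p = 1.89e-09) and *ADAM19* from 35.3 to 10.6 CPM (log2 -1.73, adjusted p = 8.45e-09). Of 8 measured ADAMTS genes (19 listed), 2 rose and 2 fell in MCF10A and 1 rose and 1 fell in DCIS.COM, with list medians of -0.40 and 0.02. *ADAMTS9*, an aggrecan- and versican-cleaving protease, fell in DCIS.COM from 13.4 to 1.64 CPM (-2.97, adjusted p = 5.51e-09), and *ADAMTS14*, a procollagen protease, fell in MCF10A from 10.1 to 4.35 CPM (-1.21, adjusted p = 0.00269). *ADAMTS1*, *ADAMTS3* and *ADAMTS13* had group means below 1 CPM in both MCF10A groups, and the DCIS.COM rise was *ADAMTS14* between 0.0233 and 0.117 CPM.

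Of the activators and cell-surface regulators, 21 of 26 were measured. In MCF10A 2 rose and 2 fell, and in DCIS.COM 2 rose and 0 fell, with list medians of 0.21 and 0.04. *PLAT* (tissue plasminogen activator) rose in MCF10A by 2.18 on the log2 scale, from 7.09 to 32.4 CPM (adjusted p = 1.02e-11), and the syndecan *SDC1* rose by 1.21 (adjusted p = 2.08e-10). *PCSK5*, a proprotein convertase, and the integrin *ITGB3* fell there by 1.19 and 1.78 on the log2 scale. In DCIS.COM the kallikrein *KLK6* rose from 4.92 to 12.7 CPM (1.36, adjusted p = 2.41e-05), and *KLK7* passed from a group without reads to 0.162 CPM. *PLAU* (urokinase) stood at 0.59 for MCF10A and -0.40 for DCIS.COM on the log2 scale, the convertase *FURIN*, which removes the propeptide of membrane-type MMPs, had 0.22 and 0.52, and *BSG* (the MMP inducer basigin) had 0.15 and 0.04 (adjusted p = 0.263 for the last). None of these 3 genes was a DEG.

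Of 14 other protease inhibitors and MMP-clearing proteins, 9 were measured, and 2 rose and 2 fell in MCF10A and none was a DEG in DCIS.COM (list medians -0.01 and -0.04). The thrombospondins *THBS2* and *THBS1*, which bind MMPs for clearance, rose in MCF10A by 3.62 (from 2.15 to 26.8 CPM, adjusted p = 4.84e-08) and by 1.56 (adjusted p = 1.25e-10). In DCIS.COM *THBS1* fell from 3517 to 1779 CPM (-0.98, adjusted p = 7.25e-09), just under 2-fold. The value of 0.39 for *THBS2* in that line did not pass (adjusted p = 0.152). The proteoglycan *SPOCK2* fell in MCF10A by 2.25 on the log2 scale (from 2.99 to 0.562 CPM, adjusted p = 7.71e-06). *RECK*, a membrane-anchored MMP inhibitor, changed by -0.93 in MCF10A (adjusted p = 0.000114), and its value of -0.04 for DCIS.COM did not pass (adjusted p = 0.832).

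AP-1 and ETS factors are known to drive *MMP1* and *MMP10* transcription. Of 18 measured (21 listed), 2 rose and 0 fell in MCF10A and 0 rose and 1 fell in DCIS.COM, with list medians of 0.09 and -0.07. *FOSL1* rose in MCF10A by 1.76 on the log2 scale, from 7.77 to 26.5 CPM (adjusted p = 1.77e-08), and *FOS* from 3.95 to 12.4 CPM (1.63, adjusted p = 8.70e-07). In DCIS.COM *FOSL1* rose by 0.53 (adjusted p = 0.000498), under 2-fold, and the value of -0.25 for *FOS* did not pass (adjusted p = 0.152). For *JUN* the log2 fold change was -0.91 in MCF10A, with an adjusted p of 4.18e-07, but 0.59 in the other line, with an adjusted p of 2.13e-05. The values of *ETS1* were 0.61 and -0.87. *FOSL2* fell in DCIS.COM from 65.9 to 15.1 CPM (-2.12, adjusted p = 1.64e-11) and, under 2-fold, in MCF10A (-0.84, adjusted p = 5.81e-08).

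Of the MMP substrates, 22 of 29 were measured. In MCF10A 2 rose and 5 fell, and in DCIS.COM 1 rose and 3 fell (list medians -0.09 and -0.31). In MCF10A the fallen ones included fibronectin (*FN1*, from 1522 to 368 CPM, log2 fold change -2.05), *IGFBP3* (-1.86) and basement membrane collagen (*COL4A1*, -1.27), while *HBEGF* (3.10) and *CXCL8* (1.81) rose. In DCIS.COM versican (*VCAN*) fell from 17.3 to 0.367 CPM (-5.31, adjusted p = 6.89e-11), while *IGFBP5*, a growth factor-binding protein, rose from 1.06 to 2.71 CPM (1.38, adjusted p = 0.00708). *IL1B* (-2.50) and the laminin chain *LAMA3* (from 311 to 155 CPM) also fell.

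**Figure D5:**
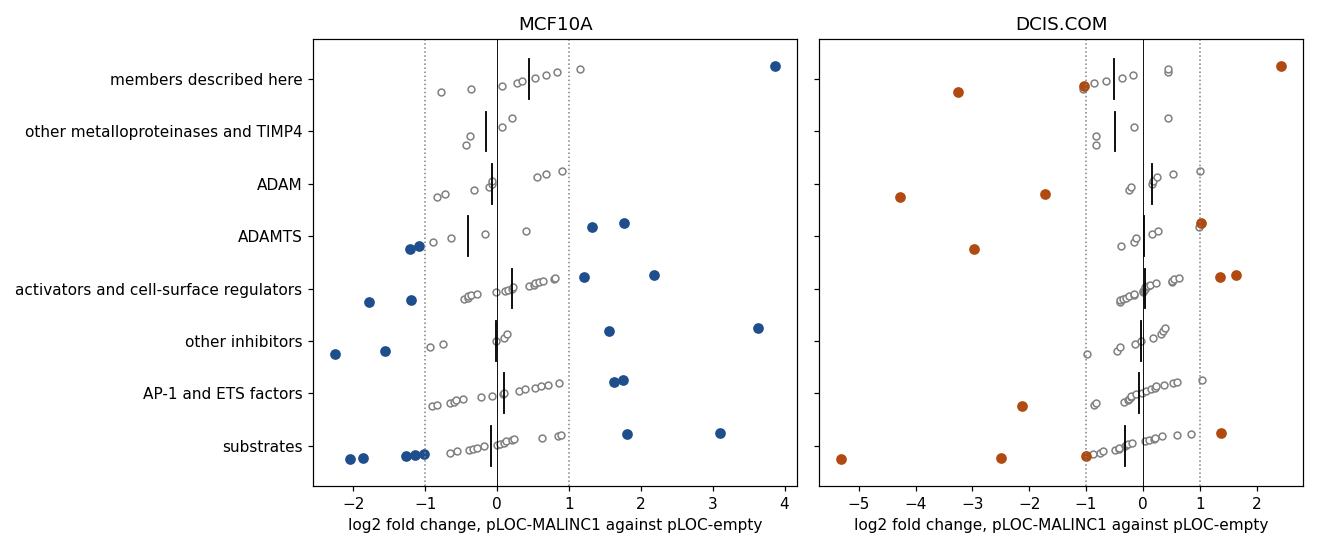
Log2 fold change of pLOC-*MALINC1* against pLOC-empty (horizontal axis) for the measured genes of each list (rows) in MCF10A (left) and DCIS.COM (right); filled points are DEGs, black bars list medians and dotted lines 2-fold. The median of the 10 genes lies at 0.44 in MCF10A and -0.50 in DCIS.COM, and *VCAN* (-5.31) and *ADAM8* (-4.27) are the lowest points in DCIS.COM.

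Other genes with a level pattern like that of a member over the 8 libraries were ranked by Pearson's r of log2 CPM among genes of at least 1 CPM on average, as a description, since the libraries fall into 4 groups that every pattern shares. *RNASE7* (r = 0.988), *PDP2* and *NAA30* were nearest to *MMP10*, and *HNRNPA1* (r = 0.988), *ECHDC1* and *ALDOA* to *MMP2*. *EPHB3* (r = 0.999), *THOC2* and *HOXC13* were nearest to *MMP16*. *GRAMD2B* (r = 0.996), *ADAM8* and *LY75* were nearest to *TIMP3*, so that *ADAM8* followed *TIMP3* across all 4 groups with r = 0.995.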

How the data were processed

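For each line (MCF10A, DCIS.COM) and vector, 2 RNA-seq libraries were used. According to the study's methods the authors aligned reads to hg19 with Rsubread, counted them per gene with featureCounts and normalized with edgeR. The deposited unit is log2 CPM (counts scaled by library size), to which 2 reads, adjusted for library size, had been added before the logarithm. Reads and linear CPM were recovered from it (100% of values whole within 0.05), and reads per effective library ranged from 0.903 to 1.06, so a scaling factor is part of the deposited values. The filter, the strand setting and tool versions are not given in the sources used here.

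On these log2 values a model was fitted in R 4.3.3 by limma 3.58.1 (lmFit, eBayes with a trend, 4 group means over 8 libraries, 4 residual and 7.98 prior degrees of freedom, Benjamini-Hochberg adjustment over 13842 genes). Genes of at least 0.5 CPM in 2 libraries were tested, which kept all rows. The steps were tested on simulated data. The members and lists were chosen with earlier results of these data known. All members are named, and of each list the genes that passed, at most 3 in each direction, and textbook partners of a member. A gene under this rule is not reported here. Replicates of a group differed by more than sampling noise. Chi-square per degree of freedom was 20.6 in DCIS.COM pLOC-*MALINC1* and 3.30 to 6.34 in the other groups. Pearson's r of log2 CPM between replicates was 0.996 to 0.997. The median standard error over all genes was 0.073 on the log2 scale. RN7SL1 and RN7SL2 took 8.22% to 15.7% of reads. A group with at most 3 reads in each library was taken as at the floor, and intervals of reads cover counting error only. GRCh37 coordinates are from GENCODE and promoters from the RefSeq table. Alternatives changed pseudocount, filter, scaling, model and threshold and left out each library in turn.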

Additional observations from a re-analysis of the deposited data

Results flagged for a closer look

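For 5 genes the response to *MALINC1* differed between the lines by the limma test of the difference itself (DCIS.COM minus MCF10A, log2 scale, adjusted p below 0.01 and over 2-fold). *MMP10* differed by -4.74 (-5.66 to -1.84 over the alternatives), with responses of 3.87 for MCF10A and -0.87 for the other line. *TIMP3* differed by -3.78, with 0.52 and -3.26. *MMP14* differed by -1.19, with 0.83 and -0.36. *MMP16* differed by 2.09, with 0.35 and 2.44. *MMP2* differed by -1.10, with 0.06 and -1.04, and is the one of the 5 that lost the 2-fold size under other settings. Because the lines were also grown in different media, line and medium cannot be told apart in these differences.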

How the results depend on the processing

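Over all alternatives, 1040 values of single members were recomputed. Of these, 986 kept their direction and their side of the limits in use, 31 passed newly, 10 no longer passed and 13 changed sign. Of the 31, 23 came from the setting with an adjusted p of 0.05 as the only limit. The tally is no measure of stability, since many directions were fixed by design. The setting without a filter was the same fit, as the filter kept all rows. The settings without trend, with a replicate block, with libraries fitted alone and with the limit of 0.05 kept the same log2 fold changes. So did leaving out a library that a comparison does not use. The alternatives with edgeR and DESeq2 were not run. After seeing the data, limma with voom weights on the recovered reads and CPM per total reads were added, which moved the median of all genes on the log2 scale to 0.13 in the DCIS.COM comparison, 0.12 for the difference and 0.10 and 0.20 between the lines without and with *MALINC1*. There *MMP2* was -0.93 and -0.92 and its difference between the lines -0.98 and -0.97. With a pseudocount of 1 CPM, DEGs numbered 416 (MCF10A) and 368 (DCIS.COM), and 3 members passed between the lines with *MALINC1* (*MMP1* 0.92 and *MMP9* -0.95 were lost). With an adjusted p of 0.05 as the only limit, the calls were 7338 genes and 7 members in MCF10A, 6387 and 8 in DCIS.COM, 6887 and 10 for the difference, 11236 between the lines without *MALINC1*, and 11131 and 10 with it. With MCF10A fitted alone 0 members passed (*MMP10*, adjusted p = 0.0106). Leaving out a library gave 1 to 2 members in MCF10A, 3 to 4 in DCIS.COM, 5 to 6 for the difference and 6 to 7 between the lines without *MALINC1*. The additions were *MMP9* (1.77 in MCF10A and -2.42 for the difference, without MCF10A pLOC-empty replicate 1, and -1.82 or -1.63 between the lines without MCF10A pLOC-empty replicate 2 or DCIS.COM pLOC-empty replicate 1) and *MMP1* (-1.05 in DCIS.COM without MCF10A pLOC-empty replicate 2, and -1.81 for the difference without MCF10A pLOC-empty replicate 1, which rests on the MCF10A groups at the floor). Signs turned for values that were not DEGs under any alternative. In MCF10A these were *MMP2* (-0.048 to 0.17, and -0.0063), *MMP1* (at the floor, -0.22 to 0.76, and -0.012) and *MMP16* (-0.059 to 0.76) with a library left out, of which only *MMP16* reached an adjusted p below 0.01. Between the lines without *MALINC1*, *TIMP1* was 0.051 with quantile normalization, 0.087 without RN7SL reads, 0.052 with voom, 0.052 per total reads and 0.018 and -0.055 without DCIS.COM pLOC-empty replicate 1 and 2, and *MMP14* was 0.036, 0.0018 and 0.00079 without RN7SL reads, with voom and per total reads. Quantile normalization made *MMP9* pass between the lines without *MALINC1* (-2.16). In CPM without division by length, the TIMP to MMP ratio was 1.95 and 1.31 for MCF10A without and with *MALINC1*, and 6.13 and 1.58 for DCIS.COM. The cause of these changes was not tested. The replicate numbers in the labels are shared between groups, but same-numbered libraries did not deviate together (correlations of -0.067 to 0.038), and with a replicate block 759 genes and 1 member were DEGs for MCF10A, 634 and 3 for DCIS.COM, 1278 and 5 for the difference, 3962 and 6 between the lines without and 3690 and 5 with *MALINC1*. Depth limits *MMP1*, *MMP9* and *MMP10*, where a library held as few as 0 reads.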
